A study of Mus musculus with 14 samples.

Results

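Mouse oligodendrocyte precursor cell (OPC) cultures that had received an siRNA against Secisbp2l and had differentiated for 3 days (siSbp2l) were compared with the precursors before differentiation (Day0). The comparison asks which parts of differentiation still take place when Secisbp2l mRNA is low. The members were chosen by their labels and are 4 of the 14 libraries of the series, 2 of Day0 and 2 of siSbp2l. Of the 23427 genes listed, 11413 had at least 1 FPKM in 2 or more of these 4 libraries and were tested. FPKM divide the fragment count by exon length and by sequencing depth, so levels below are per length.

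Every culture came from wild-type C57BL/6J cells purified by immunopanning, which captures cells on an antibody-coated dish, here against PDGFRα. A preparation used cortices of 3 pups at postnatal day 7, so animals were pooled. Differentiation was started by taking away the mitogen PDGF-AA and adding the thyroid hormone T3. Day0 cells were OPCs at the start of that step, labelled wild type and with no transfection named. siSbp2l cells were harvested at Day3, after 72 h with the siRNA, a short double-stranded RNA that lowers the mRNA it matches, and which of the 3 catalogued siRNAs against the gene was used is not given in the sources used here. The contrast therefore holds 3 days, the transfection and the knockdown together. To set the knockdown beside differentiation without it, 8 Day3 control libraries were used, 2 each of non-treated, mock-transfected, NC siRNA #1 and NC siRNA #2 cells, where NC marks a non-targeting siRNA. The labels' growth protocol names DMEM with 10% serum, whereas the study's methods describe a defined medium.

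OPCs are dividing glial cells of the brain. When mitogen is withdrawn they leave the cell cycle, pass through a committed, premyelinating stage marked by genes such as Enpp6 and Bcas1, and then make the proteins and the cholesterol-rich and galactolipid-rich membrane of myelin. Secisbp2l encodes Sbp2l, a paralog of the factor Sbp2 that lets ribosomes insert selenocysteine, and it is expressed in the oligodendrocyte (OL) lineage.

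The targeted gene was examined first. Secisbp2l lies on the minus strand of chromosome 2. It had 30.4 and 31.5 FPKM at Day0 and 3.91 and 3.82 in siSbp2l, while the 8 control libraries had a lowest, median and highest value of 135, 159 and 255. Both siSbp2l libraries thus lay below the precursors themselves, and no control library lay below Day0. The log2 fold change of siSbp2l against Day0 was -2.71 (SE 0.13) (limma, adjusted p = 1.43e-08), and that of the controls was 2.49. Its paralog Secisbp2 had 12.3 and 12.7 FPKM at Day0 and 20.9 and 19.5 in siSbp2l, a log2 difference of 0.65 (limma, adjusted p = 7.18e-05) that stayed under 2-fold.

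The depth recovered from the FPKM steps was 31565803 and 22461312 fragments for Day0, 20235417 and 21663620 for siSbp2l, and 6555959 to 21315071 for the controls, the lowest being replicate 2 of NC siRNA #2. The log2 difference between the replicates of a group, over genes with at least 1 FPKM in both, had an SD of 0.171 in Day0 and 0.142 in siSbp2l. In the non-treated control pair it was 0.463, with a difference that followed GC content across genes (rho = 0.792 over genes, which are not independent); the Day0 pair had a rho of 0.554. Defining markers were checked against the labels. The precursor marker Pdgfra had 409 and 436 FPKM at Day0, the endothelial marker Cldn5 was listed at 0 in all 4 libraries, and the microglial marker Cx3cr1 stayed at or below 0.0263 FPKM. Of 13 microglia markers 2 and of 16 vascular markers 0 reached the filter. The defining markers P2ry12 (microglia) and Gfap (astrocyte) went the other way and were higher in siSbp2l than at Day0. Their values are given below with the markers of other cells.

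Genes were called where the fold change was at least 2 either way and the Benjamini-Hochberg adjusted p from limma was under 0.05, and "rose" and "fell" are used here for called genes alone. Of the 570 entries of the 29 gene lists found in the table, 102 were under the filter in siSbp2l against Day0 and have no test. All log2 values were computed from FPKM + 1, so changes of weakly expressed genes come out too small, and a value in parentheses after FPKM values is the log2 change since Day0 unless another comparison is named. In siSbp2l against Day0, 2705 of 11413 genes were called (23.7%), of which 1430 were higher (12.5%) and 1275 lower (11.2%). In the mean of the 4 control groups against Day0, 3130 of 11874 genes were called (26.4%), 1422 higher (12%) and 1708 lower (14.4%). Both comparisons share the Day0 libraries, so their values are set side by side below. The difference between the changes was tested directly, since Day0 cancels, as siSbp2l minus the mean of the 4 control groups, in which 838 of 11874 genes were called (7.06%), 363 higher (3.06%) and 475 lower (4%). The percentages in this paragraph are the shares over all genes tested, against which the list counts below are to be read. With median-ratio scaling in place of the FPKM as deposited, the median difference over all genes moved from 0.09 to -0.01 in siSbp2l against Day0, and from 0.14 to 0.00 in siSbp2l against the controls. The split then became 1213 higher and 1448 lower in the former and 218 higher and 618 lower in the latter.

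**Figure D1:**
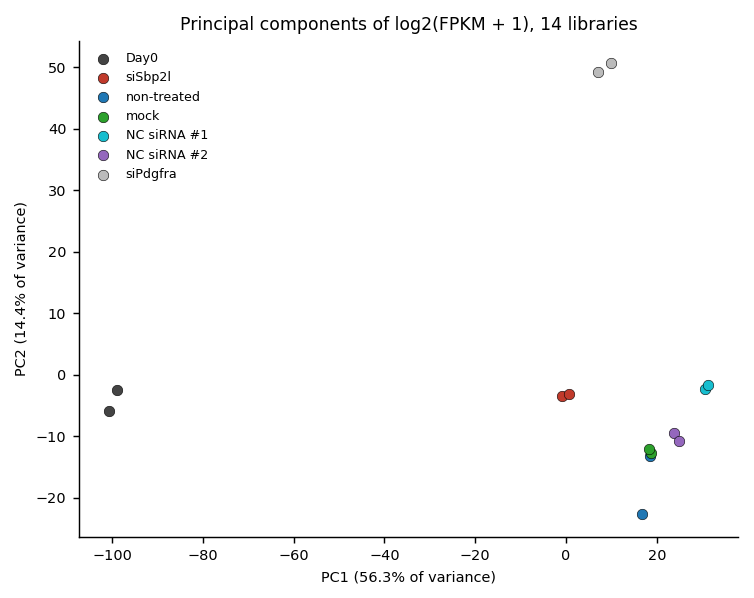
Principal components of log2(FPKM + 1) over 11874 genes, with PC1 (56.3% of the variance) on the x axis and PC2 (14.4%) on the y axis, 1 point per library, colored by group, with the siPdgfra cells (siRNA against Pdgfra, used here for the spread alone) in grey. The Day0 libraries sit at -98.9 and -100.7 on PC1, the siSbp2l libraries at -0.88 and 0.64, and the 8 control libraries between 16.7 and 31.4.

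Cell division genes fell together. All 40 measured genes of the DNA replication list, which holds the MCM helicase, polymerase, clamp loader and nucleotide supply genes, fell in siSbp2l against Day0, where 11.2% of all genes did, with a median log2 change of -2.88. All 36 genes of the mitosis list fell as well, with a median of -4.89, against a median of 0.09 over all genes tested. In the controls, in which 14.4% of all genes fell, 39 of 40 and 36 of 36 fell, with medians of -3.13 and -4.24. Summed over the mitosis list, the level was 2412 and 2504 FPKM at Day0, 36 and 36.2 in siSbp2l, and 24.8 to 157 in the controls. In bulk libraries such as these, fewer cells of a type and less RNA per cell cannot be told apart.

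Short promoter stretches of members that fell far are shown first, because these lists are groups in which every measured member moved the same way. The windows, from RefSeq on GRCm38.p6, run from 250 bases before to 50 bases after an annotated start. They were searched on both strands for E2F-type words (TTTCCCGC, TTTCGCGC, TTTGCCGC or TTTGGCGC) and for the cell cycle homology region (CHR) word TTTGAA. The excerpts below read 5′ to 3′ on the strand of the gene, with the word in capitals, which is TTCAAA or begins with GCG where the match lies on the opposite strand. None of these matches overlapped another of the motifs searched.
Mcm5, chr8:75109349-75109378, plus strand: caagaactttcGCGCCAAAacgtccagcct
Uhrf1, chr17:56304117-56304146, plus strand: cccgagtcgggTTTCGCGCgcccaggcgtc
Mcm6, chr1:128359734-128359763, minus strand: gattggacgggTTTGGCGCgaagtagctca
Top2a, chr11:99024195-99024224, minus strand: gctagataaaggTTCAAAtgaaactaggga
Ube2c, chr2:164769888-164769917, plus strand: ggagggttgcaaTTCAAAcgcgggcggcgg
Mki67, chr7:135716460-135716489, minus strand: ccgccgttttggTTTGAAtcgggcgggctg

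The words begin 149, 185 and 47 bases before the start in Mcm5, Uhrf1 and Mcm6, and 23, 29 and 98 bases before it in Top2a, Ube2c and Mki67. Windows were found for 31 of 40 replication genes and 29 of 36 mitosis genes. An E2F-type word was held by 13 of 36 replication windows (36.1%), by 2 of 31 mitosis windows and by 4.21% of the 11745 windows of genes tested. The CHR word was held by 22 of 31 mitosis windows (71.0%), by 4 of 36 replication windows and by 11.5% of the windows of genes tested. The word CCAAT was in 77.4% of the mitosis windows, 61.1% of the replication windows and 38.4% of those of genes tested. A word in a window is a description of the sequence, and binding was not measured.

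Top2a, the topoisomerase that untangles DNA before division, had 219.5 and 264 FPKM at Day0, 1.53 and 1.6 in siSbp2l and 1.33, 8.2 and 16 (lowest, median and highest) in the controls. Its log2 fold change since Day0 was -6.56 (SE 0.16) in siSbp2l (limma, adjusted p = 1.16e-10) and -5.04 in the controls. The siSbp2l values lay within the range of the 8 controls, near its low end. Ccnb1, the B-type cyclin of mitotic entry, went from 153 and 167 FPKM to 0.618 and 0.816, a log2 change of -6.55. Mki67, the proliferation marker, went from 99.6 and 122 FPKM to 0.553 and 0.727, a log2 change of -6.09. Rrm2, the ribonucleotide reductase subunit made in S phase, had 165 and 155 FPKM at Day0 and 1.13 and 2.01 in siSbp2l, a log2 change of -5.99, and Mcm5, a subunit of the replicative helicase, went from 76.4 and 71.4 to 1.76 and 1.79 (-4.75).

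All 36 mitosis genes had a negative difference between siSbp2l and the control mean, with a median of -0.64 (-0.73 with median-ratio scaling). By limma, 34 had an unadjusted p under 0.05. Of the 36, 5 were called lower, Top2a, Ccnb1, Mki67, Ube2c and Nuf2, with log2 differences of -1.52 to -1.03. These differences depended on the control, since the median of the list lay at -1.30 against the control group where it was farthest from siSbp2l and at 0.14 against that where it was nearest. Of the 40 replication genes, Rrm2 was lower (-1.02, or -1.88 to 0.01 against the single control groups) and Prim1, the primase subunit, was higher (1.19; 11.6 and 12.7 FPKM against 2.68 to 6.24 in the controls). The maintenance methylation factor Uhrf1 had 66.8 and 64.7 FPKM at Day0, 2.04 and 2.29 in siSbp2l and 0.712 to 4.09 in the controls, and the 95% interval of its difference from the control mean was -0.09 to 0.28. Such intervals use the spread between replicates within a group. Differences among the 4 control groups do not enter them, so single controls can lie farther from siSbp2l. Mcm3 had an interval of -0.35 to 0.19 and the mitotic transcription factor Foxm1 one of -0.49 to 0.01, after log2 changes since Day0 of -4.26 and -4.21.

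G1 regulators did not all move one way. Of 17 tested, 10 fell (11.2% of all genes did). The other 7 were not called, although 16 of the 17 had an unadjusted p under 0.05 (limma). Cyclin D1, Ccnd1, the mitogen-dependent partner of Cdk4, had 329 and 304 FPKM at Day0, 19.9 and 20.9 in siSbp2l and 5.43, 11.8 and 20 in the controls. It fell, with log2 changes of -3.89 (SE 0.09) in siSbp2l and -4.72 in the controls, and stood 0.83 above the controls (limma, adjusted p = 2.67e-06), a difference under 2-fold. Cyclin E2, Ccne2, fell by 3.34, and the transcription factor gene E2f3, an activator of S phase genes, fell by 2.02. The CDK inhibitor genes moved unequally. Cdkn1b (p27) had 54.5 and 48.6 FPKM at Day0, 91.3 and 88.8 in siSbp2l and 46.9 to 58 in the controls, a log2 difference since Day0 of 0.79 that did not reach 2-fold. Cdkn1a (p21) had 10.5 and 10, 17.7 and 18.1 and 22.9 to 68.2 FPKM in the same order, 0.75 since Day0 in siSbp2l and 1.84 in the controls. The difference between the changes of Cdkn1a was -1.09 (limma, adjusted p = 1.03e-05), so it was called. The retinoblastoma relative Rbl2 was -0.63 since Day0 in siSbp2l and 0.47 in the controls, and was called lower between them (-1.11).

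**Figure D2:**
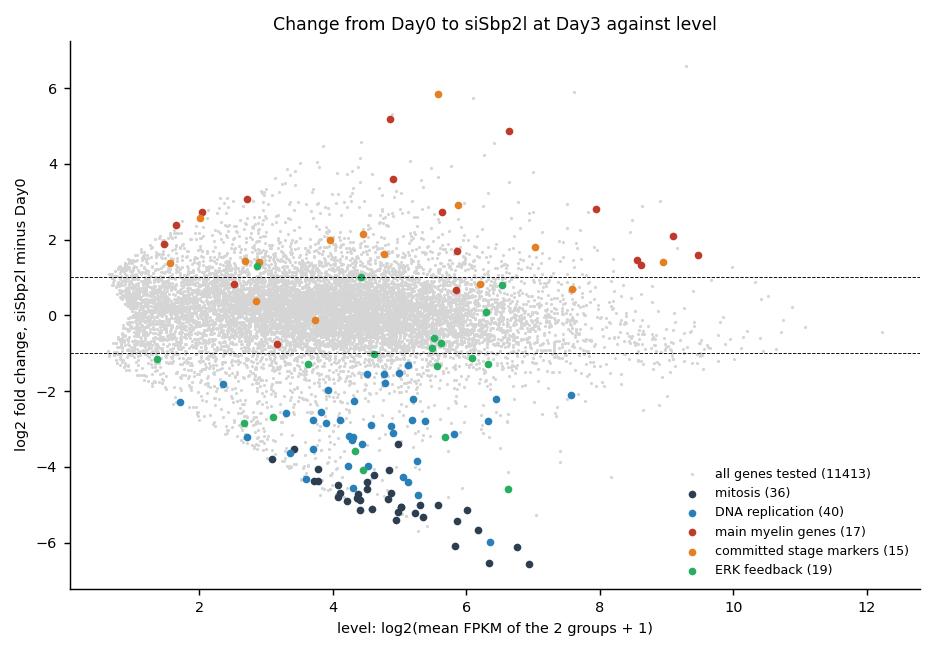
Log2 fold change of siSbp2l minus Day0 (y axis) against the level, log2 of the mean FPKM of both groups plus 1 (x axis), with 1 grey point for each of the 11413 genes tested, 5 gene lists in color and dashed lines at 2-fold. The 36 mitosis and 40 DNA replication genes lie below the lower line, and 14 of 17 main myelin genes lie above the upper line.

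Precursor markers fell in part. Of 15 tested, 6 fell and 2 rose (11.2% and 12.5% of all genes did), with a median of -0.27. In the controls 7 fell and 3 rose (14.4% and 12% of all genes did). Cspg4 (NG2), a surface proteoglycan of OPCs, had 25.6 and 21.8 FPKM at Day0, 2.24 and 2.26 in siSbp2l and 0.958 to 2.81 in the controls. It fell by 2.92 (SE 0.14) in siSbp2l (limma, adjusted p = 1.25e-08), and the 95% interval of its difference from the controls was -0.09 to 0.40. Xylt1, which starts glycosaminoglycan chains, fell by 2.71 and differed from the controls by -0.30 to 0.00 (95% interval). Pdgfra, the receptor of PDGF-AA, had 149.9 and 144 FPKM in siSbp2l and 32.4, 54.2 and 72.1 in the controls. All 4 siSbp2l and Day0 values were above every control, and the log2 change since Day0 was -1.51 in siSbp2l and -3.05 in the controls. The fall of Pdgfra was thus smaller in siSbp2l by 1.54 (SE 0.08; limma, adjusted p = 7.93e-08). Cacng4, an auxiliary subunit of AMPA receptors, had 123 and 113 FPKM at Day0, 122 and 122 in siSbp2l and 36.5 to 66.5 in the controls, so the siSbp2l values lay among those of Day0 and above every control. The proteoglycan Vcan rose in siSbp2l, from 15 and 17.5 to 36.6 and 38.2 FPKM (1.16), while the controls had 10.1 to 18. The call of Vcan was lost with the trends in GC content and length removed, where its change since Day0 was 0.89.

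Genes induced by ERK signaling, many of which feed back on it, fell in siSbp2l, and some of them stood above the controls. Of 19 tested, 12 fell and 2 rose in siSbp2l (11.2% and 12.5% of all genes did), with a median of -1.17. In the controls 15 fell (14.4% of all genes did), with a median of -2.04. Between the groups 6 of 19 were called (7.06% of all genes were), all higher in siSbp2l, with a median difference of 0.57 (0.43 with median-ratio scaling). The immediate early gene Egr1 fell from 204 and 174 FPKM to 7.23 and 6.51 (-4.59) and the feedback inhibitor Spry4 from 41.1 and 39.2 to 1.13 and 1.8 (-4.07). For Spry4 the 95% interval of the difference from the controls was -0.19 to 0.29, and for the ERK phosphatase Dusp6, which fell by 3.59, it was -0.34 to 0.05. Myc had 93.7 and 91.4 FPKM at Day0, 41.9 and 41 in siSbp2l and 9.45, 20.3 and 25.9 in the controls, with no overlap between siSbp2l and the controls. Its change since Day0 was -1.14 in siSbp2l and -2.32 in the controls, a difference of 1.18 (limma, adjusted p = 1.21e-05). The feedback inhibitor Spry1 had 29.7 and 31.7 FPKM in siSbp2l and 11.1 to 15.2 in the controls, a difference of 1.18. Jun had 68.7 and 63.9 FPKM at Day0, 119 and 114 in siSbp2l and 31.5 to 52.3 in the controls, and was higher than the controls by 1.30.

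Genes of the committed stage rose in siSbp2l. Of 15 tested, 11 rose (12.5% of all genes did), with a median of 1.43, and 3 of the 18 listed did not reach the filter (Kif19a, Casr and Tmem163, with at most 0.43, 0.0139 and 0.706 FPKM in the 4 libraries). In the controls 16 of 17 rose, with a median of 2.34. Enpp6, a choline phosphodiesterase of newly formed oligodendrocytes, had 0.66 and 0.609 FPKM at Day0, 86.1 and 99.5 in siSbp2l and 175, 259 and 515 in the controls. The siSbp2l values were far above Day0 and below every control. The log2 fold change was 5.84 (SE 0.19) since Day0 (limma, adjusted p = 5.42e-10), against 7.33 in the controls. Tns3, an adaptor of focal adhesions, rose from 13.1 and 12.4 to 97.7 and 109 FPKM (2.92). Bmp4, a secreted signal made at this stage, went from 0.111 and 0.201 FPKM to 5.86 and 5.96 (2.58), and the controls had 3.03 to 4.91. Between siSbp2l and the controls 7 of 17 were called (7.06% of all genes were), all lower in siSbp2l. The sialidase gene Neu4 had 3.1 and 3.48 FPKM in siSbp2l and 8.5 to 20.7 in the controls (-1.68). Rras2, a Ras-family GTPase, had 5.42 and 5.08 FPKM at Day0 and 7.29 and 7.03 in siSbp2l, a log2 difference of 0.38, and 17 to 39.4 in the controls (-1.67 between siSbp2l and the controls).

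**Figure D3:**
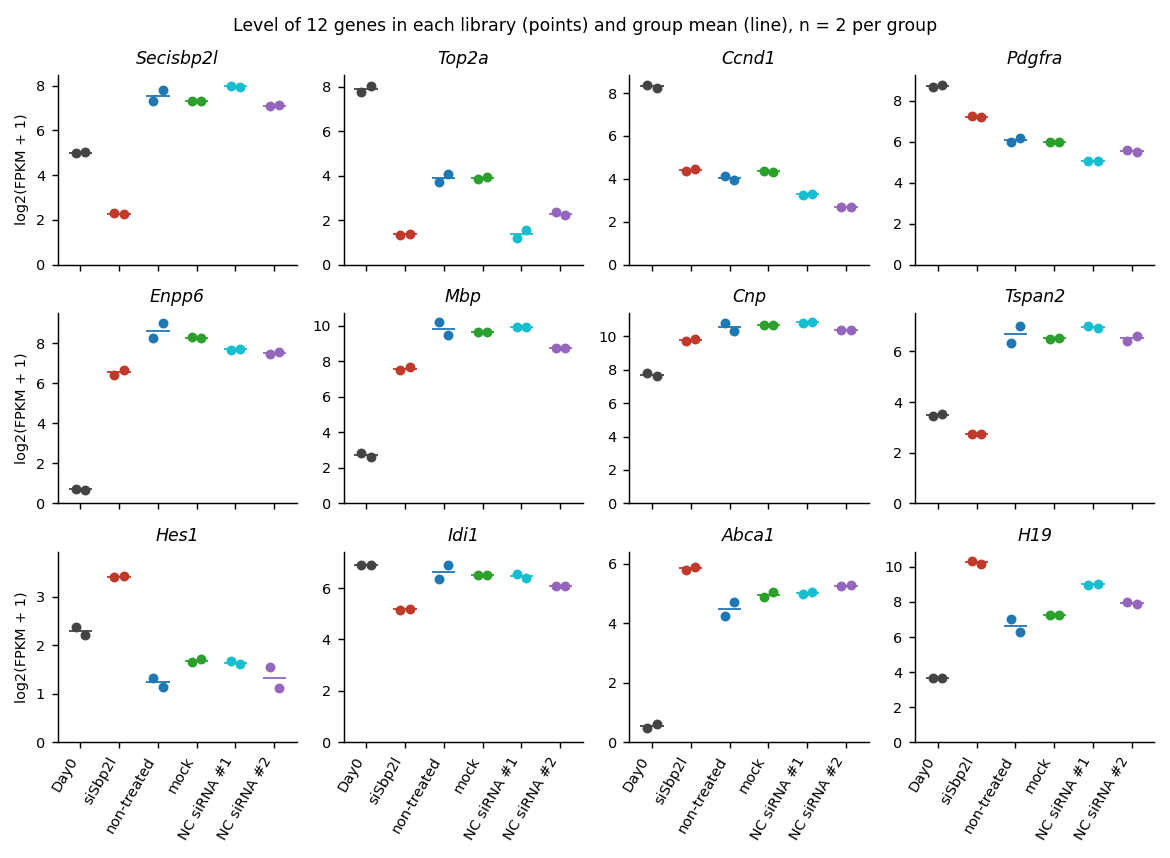
Level of 12 genes, log2(FPKM + 1) on each y axis from 0, in Day0, siSbp2l and the 4 Day3 control groups, with points for the 2 libraries of a group and a line for their mean. The siSbp2l libraries lie between Day0 and the controls for Pdgfra, Enpp6, Mbp and Cnp, below both for Secisbp2l, Tspan2 and Idi1, and above both for Hes1, Abca1 and H19.

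The main myelin genes rose too, by less than in the controls for most members. Of 17 tested, 14 rose (12.5% of all genes did), with a median of 2.08. In the controls 16 of 17 rose (12% of all genes did), with a median of 3.10. Summed over the list, the level was 1204 and 1096 FPKM at Day0, 3945 and 4199 in siSbp2l, and 11051 to 14942 in the controls. Mbp, the basic protein that compacts the membrane, had 6.13 and 5.09 FPKM at Day0, 179 and 202 in siSbp2l and 434, 795 and 1188 in the controls. Every siSbp2l value was above Day0 and below every control, with log2 changes since Day0 of 4.86 (SE 0.19) in siSbp2l (limma, adjusted p = 2.21e-09) and 6.83 in the controls. Mag, an adhesion protein of the inner myelin wrap, rose from 0.586 and 0.513 FPKM to 51 and 60.4 (5.19), and Cnp, the phosphodiesterase of noncompact myelin, from 219 and 197 to 850.3 and 917 (2.08). Cnp had 1273, 1631 and 1895 FPKM in the controls, all above siSbp2l. Sept4, a septin of the myelin scaffold, reached 10.3 and 11.1 FPKM in siSbp2l from 0.309 and 0.462, with 61.8 to 174 in the controls.

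Members of the list differed among themselves in how they stood against the controls. There 10 of 17 were lower and 2 higher, where 4% and 3.06% of all genes tested were. Tspan2 (chromosome 3, plus strand, 102734770 to 102772310 in mm10), a tetraspanin of myelinating cells, had 9.97 and 10.6 FPKM at Day0, 5.65 and 5.69 in siSbp2l and 79.5, 95.4 and 128 in the controls. It was the single member with a negative value since Day0 (-0.76 (SE 0.17); limma, adjusted p = 0.00231), which did not reach 2-fold, against a rise of 3.17 in the controls. The difference between the changes was -3.93 (SE 0.14; limma, adjusted p = 8.08e-09) and lay at -4.23 to -3.78 against the single control groups. Cntn2, an adhesion molecule of the juxtaparanode, rose from 0.0796 and 0.0886 FPKM to 6.12 and 6.25 in siSbp2l, above every control (0.25 to 0.715), and was higher than the controls by 2.32. Mal, a proteolipid, went from 0.0121 and 0 FPKM to 3.91 and 4.7, with 0.506 to 1.73 in the controls (1.29). For the tetraspanin Cd9, with 542 and 584 FPKM in siSbp2l and 385 to 996 in the controls, the 95% interval of the difference was -0.19 to 0.21.

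Late myelin genes were low or absent in many cases. Of 20 listed, 14 reached the filter in siSbp2l against Day0. Of these 6 rose and 2 fell (12.5% and 11.2% of all genes did), with a median of 0.61. In the controls 11 of 18 rose (12% of all genes did), with a median of 1.45. Mog, an outer surface protein of mature myelin, had 0.0556 and 0.0781 FPKM at Day0, 3.73 and 3.94 in siSbp2l and 5.23, 37.2 and 67.2 in the controls. Mobp had 0.157 and 0.104, 3.83 and 3.52 and 5.05, 18.7 and 103 FPKM in the same order. Both rose in siSbp2l (2.18 and 2.05) and were lower there than in the controls (-2.55 and -2.26), by -3.79 to -0.39 for Mog and -4.46 to -0.47 for Mobp against the single control groups. Ptgds, a prostaglandin synthase of oligodendrocytes, rose from 5.85 and 5.19 FPKM to 359 and 412, the second largest rise among genes of at least 10 FPKM in siSbp2l (5.89). Aspa, Klk6, Hapln2, Cryab and S1pr5, which did not reach the filter, stayed at or below 0.999 FPKM in the 4 libraries, and of these Cryab had 3.01 to 16.5 in the controls. Gjb1, a gap junction gene, and Anln, which also serves cytokinesis, fell (-1.23 and -3.42).

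Transcription factors were mixed. Of 16 factors that promote differentiation, 6 rose and 2 fell in siSbp2l (12.5% and 11.2% of all genes did). Their median was 0.78. The same numbers, 6 and 2, were called in the controls, with a median of 0.53. Between siSbp2l and the controls 3 of 16 were lower and 2 higher (4% and 3.06% of all genes were). Gm98 (Myrf), the master regulator of myelin genes, had 6.49 and 5.53 FPKM at Day0, 80.8 and 93.9 in siSbp2l and 140.0, 204 and 256 in the controls, log2 changes of 3.66 (SE 0.16) and 4.80. Both siSbp2l values were far above Day0 and below every control. Tcf7l2, the T cell factor that acts in differentiating oligodendrocytes, rose from 9.04 and 7.62 FPKM to 45 and 48.1 (2.35; limma, adjusted p = 2.15e-09), with 47.2, 54.4 and 61 in the controls (2.56). Its difference from the controls was -0.21, with a 95% interval of -0.37 to -0.05. Klf9, a thyroid hormone target, rose by 2.64 in siSbp2l and by 3.75 in the controls, and St18 by 1.60 and 3.30. Olig2, the lineage factor, fell from 399 and 331 to 141 and 146 FPKM (-1.33), and the 95% interval of its difference from the controls was -0.33 to 0.10. Chd7, a chromatin remodeler, had 24.7 and 27.8 FPKM at Day0, 58.2 and 55.5 in siSbp2l and 19.6 to 37.6 in the controls, and was called against both. With the GC and length trends removed, the change of Chd7 since Day0 was 0.70, and with median-ratio scaling it was 0.98, both under 2-fold.

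Factors that hold precursors back were higher in siSbp2l than in the controls for some members. Of 15 tested, 6 rose and 1 fell in siSbp2l, with a median of 0.83, while 4 rose and 6 fell in the controls, with a median of -0.73. Over all genes tested, 12.5% rose and 11.2% fell in siSbp2l, and 12% rose and 14.4% fell in the controls. Between siSbp2l and the controls 4 were called, all higher in siSbp2l (3.06% of all genes were). The median difference was 0.69 (0.54 with median-ratio scaling). Hes1, a Notch effector, had 4.18 and 3.65 FPKM at Day0, 9.52 and 9.72 in siSbp2l and 1.16, 2.00 and 2.29 in the controls. Both siSbp2l libraries lay above Day0 and all 8 control libraries below it, with log2 values of 1.11 and -0.82 and a difference of 1.94 (limma, adjusted p = 1.60e-07). Id2, a dominant-negative helix-loop-helix protein, had 115 and 116 FPKM at Day0, 162 and 155 in siSbp2l and 27.8, 49.2 and 66.8 in the controls (0.45 and -1.32). Hes5 rose from 1.44 and 1.01 to 12.7 and 12.4 FPKM and Sox4, a SoxC factor of immature cells, from 63.2 and 53.6 to 395 and 390.2 (2.73). Sox11, its close relative, had 83.1 and 78.2 FPKM at Day0, 46.1 and 45 in siSbp2l and 12.5 to 20.9 in the controls, so siSbp2l lay between them.

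Cholesterol synthesis genes were at or below their precursor level in most cases. Of 21 genes, 3 fell in siSbp2l against Day0, a share close to the 11.2% of all genes, and 18 had a negative value, with a median of -0.68. In the controls 1 rose, with a median of 0.31. Between the groups 7 were called, all lower in siSbp2l, where 4% of all genes tested were lower. All 21 differences were negative and their median was -0.88. Idi1, the isopentenyl isomerase (chromosome 13, plus strand, 8885606 to 8892396 in mm10), had 119 and 118 FPKM at Day0, 34.4 and 35.5 in siSbp2l and 66.7, 86.2 and 118 in the controls. It fell by 1.73 (SE 0.14) (limma, adjusted p = 1.13e-06) and was -0.48 in the controls, in which every library lay above siSbp2l. Tm7sf2, a sterol reductase, fell from 21.2 and 14.8 to 5.9 and 5.7 FPKM (-1.46), and Acat2, a thiolase at the start of the pathway, from 159 and 159 to 68.6 and 67.3 (-1.21). Sc5d and Sc4mol (Msmo1), which act late, were -0.77 and -0.73 since Day0 in siSbp2l and 0.59 and 0.52 in the controls, differences of -1.36 and -1.26. Hsd17b7 was the member that rose in the controls (1.34; 21.6 to 55 FPKM), and it had 13.6 and 12.6 FPKM at Day0 and 15.3 and 14.5 in siSbp2l. The word CCAAT was in 15 of 19 promoter windows of the 16 genes that had one (78.9%), and the sterol response word TCACNCCAC, searched on both strands, in 1, against 1.10% of the windows of genes tested.

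**Figure D4:**
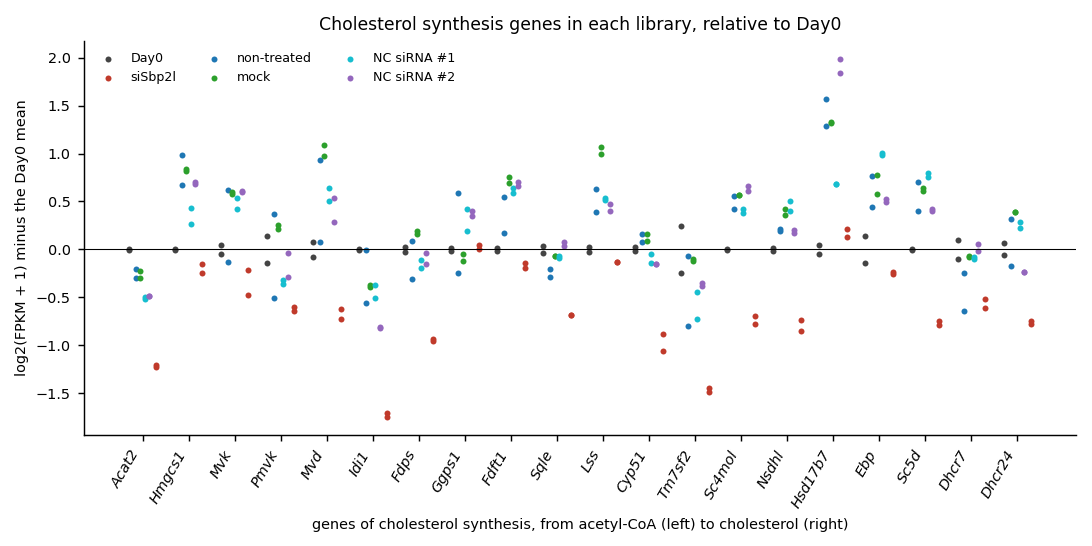
Level of 20 of the 21 cholesterol synthesis genes in each library, log2(FPKM + 1) minus the Day0 mean of the gene (y axis), with the genes in the order of the pathway (x axis) and 1 point per library, colored by group. Both siSbp2l points of Acat2, Idi1 and Tm7sf2 lie more than 1 below 0.

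Genes of sterol sensing and export did not move together. Of 14 tested, 4 rose in siSbp2l, where 12.5% of all genes tested did, with a median of 0.33. In the controls 5 rose, where 12% of all genes tested did, with a median of 0.59. Between siSbp2l and the controls 1 was called higher and 1 lower, where 3.06% and 4% of all genes were. Abca1, the cholesterol exporter, had 0.385 and 0.511 FPKM at Day0, 54.3 and 58.7 in siSbp2l and 18.1, 31.3 and 38 in the controls, the siSbp2l libraries lying above every control. Its log2 change since Day0 was 5.31 (SE 0.13) (limma, adjusted p = 1.29e-10) against 4.40 in the controls. Apoe, a lipoprotein that carries exported sterol, rose from 5.18 and 5.12 to 57.3 and 48.8 FPKM (3.13; controls 13 to 39.7), and the lysosomal exporters Npc1 and Npc2 rose by 1.46 and 1.0, with 95% intervals of their difference from the controls of -0.13 to 0.14 and -0.42 to 0.05. Npc2 was at the limit of 2-fold and lost its call with median-ratio scaling (0.90), without replicate 2 of Day0 (0.94) and without replicate 1 of siSbp2l (0.97). Insig1, which retains the sterol-sensing SREBP complex, had 55.6 and 55.8 FPKM at Day0, 44.9 and 41 in siSbp2l and 103 to 130.4 in the controls (-0.37 and 1.01). Srebf2, the transcription factor of this pathway, was 0.15 since Day0 (limma, adjusted p = 0.376).

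Other genes of myelin lipids were examined by list. Of 19 fatty acid synthesis genes, 1 rose and 2 fell in siSbp2l, a lower share than the 23.7% of all genes tested, and 4 rose and 1 fell in the controls, where 26.4% of all genes were called. Elovl7, a fatty acid elongase, rose from 6.49 and 6.44 FPKM to 35 and 35.5 (2.28), with 97.1 to 174 in the controls (3.99), whereas its relative Elovl6 fell from 51.6 and 50.1 to 13.2 and 14.7 (-1.79). Scd2, a desaturase, had 551 and 521 FPKM at Day0, 551 and 575 in siSbp2l and 965 to 1285 in the controls, a log2 value since Day0 of 0.07 in siSbp2l (95% interval -0.15 to 0.29) and a rise of 1.08 in the controls. Of 15 galactolipid and sphingolipid genes, 3 rose in siSbp2l and 7 in the controls, where 12.5% and 12% of all genes tested rose. Fa2h, which makes the hydroxylated fatty acids of myelin galactolipid, had 1.56 and 1.03 FPKM at Day0, 10.8 and 13.6 in siSbp2l and 46.1, 58.8 and 74 in the controls, changes of 2.52 and 4.72. Ugt8a, the galactosyltransferase of that pathway, rose from 60.7 and 60.6 to 159 and 177 FPKM (1.45), and Psap, the saposin precursor, by 1.49.

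Of 9 genes of thyroid hormone reception and response, 5 rose in siSbp2l, where 12.5% of all genes tested did. In the controls 3 of 10 rose, where 12% of all genes tested did. Between siSbp2l and the controls 1 of 10 was higher and 1 lower. The median difference was 0.08 (-0.09 with median-ratio scaling). Thra, the main T3 receptor gene here, rose from 17.5 and 18.3 to 89.4 and 83.9 FPKM (2.21), and the T3 target Hr from 19.8 and 16.1 to 64 and 68.9 (1.84; controls 65.2 to 118). Rxrg, a retinoid X receptor, had 0.0297 and 0 FPKM at Day0 and 4.6 and 4.78 in siSbp2l, above every control (0.0439 to 0.666), a difference from the controls of 2.12. Dio2, the deiodinase that makes T3, stayed at or below 0.0611 FPKM in these 4 libraries and was not tested. Of 7 Wnt feedback genes 2 rose and 2 fell, where 12.5% and 11.2% of all genes tested did. Apcdd1, a Wnt inhibitor, had 7.7 and 6.65 FPKM at Day0, 30.4 and 30.4 in siSbp2l and 8.1 to 11.3 in the controls. Its 95% interval in the controls against Day0 was 0.13 to 0.51, while it rose by 1.94 in siSbp2l. Tcf7l1 rose by 2.86 and 3.0 in siSbp2l and the controls, and the stem cell receptor Lgr5 fell in both (-1.90 and -2.04).

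Many lysosomal genes rose, and many genes of ribosome production fell. Of 24 lysosome genes 12 rose and 0 fell (12.5% and 11.2% of all genes did), with a median of 0.87. In the controls 14 rose (12% of all genes did), with a median of 1.53. The other 12 were not called in siSbp2l, although 20 of the 24 had an unadjusted p under 0.05 (limma). Ctsb, a cathepsin, rose from 25.3 and 24.2 to 122 and 125 FPKM (2.28), with 82.7 to 149 in the controls and a 95% interval of the difference of -0.10 to 0.26. Grn, progranulin, rose by 2.16, with an interval of -0.27 to 0.37. Lamp1, the main lysosomal membrane glycoprotein, was an exception, with 163 and 157 FPKM at Day0, 87.8 and 88.8 in siSbp2l and 626, 701 and 779.5 in the controls. Both siSbp2l values were below Day0 and every control was above it, log2 values of -0.85 and 2.11 and a difference of -2.97 (limma, adjusted p = 1.85e-09). Of 22 ribosome biogenesis genes 11 fell in siSbp2l (11.2% of all genes did), with a median of -0.99. In the controls 18 fell (14.4% of all genes did), with a median of -1.61. All 22 differences from the controls were positive, with a median of 0.63 (0.48 with median-ratio scaling), with all 22 under 2-fold, so that 0 were called by limma while 18 had an unadjusted p under 0.05. Dkc1, of the pseudouridine synthase complex, fell from 49.1 and 54.9 to 14.1 and 14.5 FPKM (-1.79) and had 6.91 to 10.7 in the controls.

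Of 19 amino acid stress response genes 6 fell and 3 rose, where 11.2% and 12.5% of all genes did. Against the controls, where 7.06% of all genes were called, limma called 0 of 20, with 10 at an unadjusted p under 0.05. Among those that fell were the amino acid transporter Slc7a5, from 112 and 99.7 to 12.2 and 11.2 FPKM (-3.07), and the mitochondrial folate enzyme Mthfd2, from 42.7 and 47.5 to 6.51 and 6.39 (-2.63). The stress factor Atf3 rose by 2.39. In glycolysis 5 of 19 genes fell in siSbp2l, and 5 of 19 did in the controls, where 11.2% and 14.4% of all genes tested fell. Tpi1, the triosephosphate isomerase, had 41.7 and 42 FPKM at Day0, 19.2 and 17.2 in siSbp2l and 23.9 to 54.4 in the controls, a called change of -1.16 in siSbp2l and a value of 0.05 in the controls.

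Selenoproteins are the proteins made with the selenocysteine that Sbp2 helps to insert. Of 18 tested, 2 rose and 2 fell in siSbp2l, a share close to that of all genes tested (23.7% in either direction), and the counts in the controls were also 2 and 2. Between siSbp2l and the controls, where 7.06% of all genes were called, limma called 0 of 18, with 6 at an unadjusted p under 0.05. The gene 2700094K13Rik (Selenoh) fell from 175 and 158 to 14.6 and 12.9 FPKM (-3.50), with 6.84 to 22 in the controls, and the thioredoxin reductase Txnrd1 from 214 and 218 to 102 and 96.2 (-1.11). Gpx4, the lipid peroxide reductase, rose from 81.4 and 77.5 to 193 and 184 FPKM (1.24), with 184 to 299 in the controls and a 95% interval of the difference of -0.56 to 0.04. Of the 7 genes of the insertion machinery, Secisbp2l and Sephs1 (-1.23) fell. These are mRNA levels, and selenoprotein synthesis was not measured in these libraries.

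Cytoskeletal genes of process growth moved both ways, with 8 higher and 4 lower of 24, where 12.5% and 11.2% of all genes tested were. Tubb4a, the beta-tubulin of myelinating cells, rose from 107 and 101 to 851 and 846 FPKM (3.02), with 1496 to 2439 in the controls. Stmn4 rose from 2.52 and 2.31 to 39.2 and 36.8 FPKM (3.51), while its relative Stmn1, a microtubule destabilizer of dividing cells, fell from 163 and 176 to 25.4 and 21.4 (-2.81; controls 48.6 to 98.6). Arpc1b, a subunit of the actin-branching Arp2/3 complex, had 101 and 95.2 FPKM at Day0, 58.6 and 57.8 in siSbp2l and 256, 402 and 444 in the controls. It was -0.74 since Day0 in siSbp2l and rose by 1.96 in the controls, a difference of -2.70 (limma, adjusted p = 1.56e-07).

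Markers of other cells were measured beside these changes. Of 11 astrocyte markers tested 8 rose and 1 fell (12.5% and 11.2% of all genes did), with a median of 1.43, and 5 of 12 rose in the controls. Their summed level was 288 and 262 FPKM at Day0, 796 and 791 in siSbp2l, and 583 to 865 in the controls. Gfap, the astrocyte filament, had 0.677 and 0.755 FPKM at Day0, 40.7 and 39.4 in siSbp2l and 36.8, 53.5 and 79.2 in the controls, whereas the water channel Aqp4 stayed at or below 0.175 FPKM in the 4 libraries and Gjb6 was listed at 0 in all of them. Of 10 neuron markers tested 3 rose and 3 fell, where 12.5% and 11.2% of all genes did. The sum over the list was 88.4 and 85.5 FPKM at Day0, 282 and 281 in siSbp2l and 160.3 to 375 in the controls. The neuronal splicing factor Rbfox3 had 0.0421 and 0.113 FPKM at Day0 and 1.2 and 1.1 in siSbp2l. Of the 2 microglia markers tested, P2ry12 rose, with 0.69 and 0.513 FPKM at Day0 and 3.21 and 3.82 in siSbp2l. The other had a negative value (-0.83) and was not called. Summed over the microglia list, the level was 2.93 and 2.47 FPKM at Day0, 3.76 and 4.94 in siSbp2l, and 1.89 to 10.4 in the controls. The part of such cells in the changes above was not tested. Dcx, a microtubule protein of immature neurons that OPCs can also express, had 5.63 and 5.8 FPKM at Day0, 22.3 and 23.8 in siSbp2l and 3.06, 4.64 and 6.98 in the controls, and rose by 1.84 (SE 0.18) in siSbp2l (limma, adjusted p = 3.97e-06; controls -0.21, 95% interval -0.52 to 0.10).

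**Figure D5:**
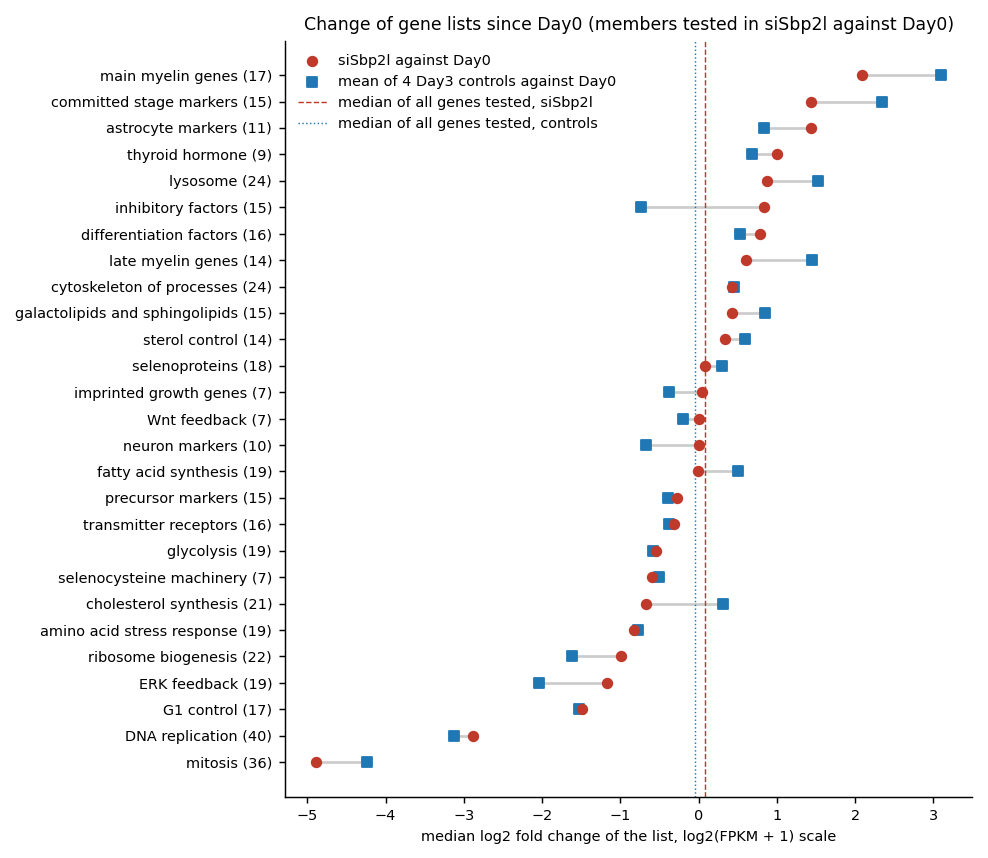
Median log2 fold change since Day0 of each gene list with at least 5 members tested (number in brackets), for siSbp2l (circles) and for the mean of the 4 Day3 control groups (squares), with lines at the medians of all genes tested (0.09 and -0.05). Mitosis lies lowest in both, main myelin genes highest in both, and cholesterol synthesis and the inhibitory factors have medians of opposite sign. The signs also differ for neuron markers, fatty acid synthesis, imprinted growth genes and Wnt feedback, whose siSbp2l medians lie between -0.004 and 0.04.

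The largest rise since Day0 among genes of at least 10 FPKM was that of H19 (chromosome 7, minus strand, 142575532 to 142578146 in mm10), an imprinted long noncoding RNA. It had 11.8 and 11.7 FPKM at Day0, 1314 and 1154 in siSbp2l and 75.6, 192 and 522 in the controls, with both siSbp2l values above every control. The log2 fold change was 6.59 (SE 0.20) (limma, adjusted p = 3.87e-10) in siSbp2l and 4.03 in the controls, which differed from each other by more than the siSbp2l pair did. Igf2, its imprinted neighbor, went from 0.223 and 0.198 FPKM to 5.98 and 5.9 (2.52), within the range of the controls (1.23 to 6.88). Mest, another imprinted gene, fell from 188 and 181 to 9.29 and 9.72 FPKM (-4.14). Other large rises were those of Rasgef1b, a Rap exchange factor, from 1.39 and 1.62 to 131 and 136 FPKM (5.75), and of the matrix-associated Sparcl1 and Sparc (4.56 and 4.24). Capn6, a calpain without protease activity, rose from 0.231 and 0.263 to 26.5 and 26.7 FPKM and lay above every control (4.4 to 13.8). All of the 12 largest falls were those of cell division genes, among them the PCNA-associated factor gene 2810417H13Rik (-5.69) and the centromeric histone gene Cenpa (-5.30).

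Some genes stayed near their Day0 level in siSbp2l while they changed in the controls. By the rule, these had a call in the controls and a 95% interval of siSbp2l minus Day0 within 1.5-fold either way. Frmd4a, a scaffold of cell polarity, had 19.9 and 18.9 FPKM at Day0, 25.6 and 25.1 in siSbp2l and 58.5, 118 and 196 in the controls, where it rose by 2.41. Pcyt2, an enzyme of phosphatidylethanolamine synthesis, had 41.9 and 42.5, 47.2 and 38.9 and 138, 159 and 256 FPKM in that order, with an interval since Day0 of -0.43 to 0.48 in siSbp2l and a rise of 2.05 in the controls. Cpox, of heme synthesis, had 10.3 and 10.2, 7.84 and 7.73 and 29.6, 49.9 and 77.5 FPKM, and the membrane protein Tmem98, a binding partner of Myrf, 2.02 and 2.01, 1.49 and 2.22 and 1.71, 14.8 and 21.3. For Tmem98 the 2 NC siRNA #2 libraries, at 1.71 and 2.30 FPKM, lay among or next to the siSbp2l values, and the difference of siSbp2l from the single control groups ran from -2.97 to -0.08. In the other direction, the filament gene Vim had 2367 and 2379.7 FPKM at Day0, 1916 and 1935 in siSbp2l and 475, 694 and 1042 in the controls, where it fell by 1.72. Klhl13, an adaptor of ubiquitin ligase, had 160.3 and 173, 134 and 133 and 27.9, 37.6 and 46.9 FPKM, and the actin-binding Aif1l 42.7 and 41.7, 36.1 and 37 and 5.42, 7.96 and 13.6. The differences between siSbp2l and the controls ran from -2.46 for Cpox to 1.96 for Aif1l, which the rule largely sets, so they are given as a description.

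Other genes were called in siSbp2l against Day0 while the 95% interval of the controls minus Day0 lay within 1.5-fold. Cox4i1, a subunit of cytochrome c oxidase, had 347 and 377 FPKM at Day0, 80.9 and 67.5 in siSbp2l and 338, 391 and 556 in the controls. It fell by 2.28 (SE 0.19) in siSbp2l (limma, adjusted p = 1.19e-06) and had an interval of -0.16 to 0.50 in the controls. Sec13, a coat protein of vesicles that leave the endoplasmic reticulum, had 95.1 and 91.3, 19.4 and 17.5 and 63, 85.3 and 102 FPKM, the small GTPase Rap2c 23.9 and 22.7, 4.4 and 4.74 and 18.4, 20.4 and 29.9, and the vesicle tethering subunit Trappc3 29.2 and 28.2, 7.46 and 7.08 and 24.5, 28.6 and 40.6. All 4 were lower in siSbp2l than in every Day0 and control library. Rftn2 and the nuclear factor Tox moved up, from 2.73 and 2.7 and from 6.22 and 5.31 FPKM at Day0 to 17.4 and 18.1 and 30.1 and 31 in siSbp2l, against control ranges of 2.46 to 4.76 and 3.87 to 11.5. Whether an siRNA touched any of these mRNAs by its own sequence was not tested.

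Of 16 transmitter receptor genes tested, 2 rose and 5 fell, where 12.5% of all genes tested rose and 11.2% fell. Grm7, a metabotropic glutamate receptor, rose from 0.0983 and 0.0957 FPKM to 2.95 and 2.65 (1.79) and by more in the controls (7.52 to 24.3 FPKM; 3.94). Grm5 fell from 18.2 and 18.1 to 4.65 and 5.17 FPKM (-1.70) and Gabra3, a subunit of the GABA-A receptor, from 2.36 and 2.4 to 0.132 and 0.124 (-1.58). Gria3, a subunit of AMPA receptors, had 23.9 and 26.9 FPKM at Day0, 17.3 and 17.9 in siSbp2l and 3.19 to 8.89 in the controls, so siSbp2l stayed nearer to Day0 (-0.50 since Day0, 1.58 against the controls).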

How the data were processed

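Polyadenylated RNA of 14 cultures was sequenced from stranded mRNA libraries (80 ng of total RNA each), and 12 of these libraries, 2 per group, enter the comparisons. The authors deposited FPKM per gene for each library, made in OmicSoft ArrayStudio on mm10 with refGene models; aligner and counting settings are not given in the sources used here. The authors' own comparisons (DESeq2) were not used. Non-treated Day3 columns, named by day alone, and 1 misspelled siSbp2l column were matched by name. Fragments per library were worked out from the FPKM steps of genes with few fragments, and depth limits precision for low genes, where 3 fragments on 2 kb of exon correspond to 0.0475 FPKM in the deepest Day0 library.

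log2(FPKM + 1) was fitted with limma 3.58.1 (R 4.3.3; intensity trend, robust empirical Bayes, two-sided), with 1 mean per group over all 14 libraries (7 residual degrees of freedom), after a filter of at least 1 FPKM in 2 of the 4 siSbp2l and Day0 libraries, or in 2 of all 14 where the controls enter. The siPdgfra libraries add to the estimate of the spread alone. p-values were adjusted by Benjamini-Hochberg over all genes tested. The study describes 2 independent replicates of cultured OPCs and calls each plotted point an independent experiment. Nothing states that replicates came from separate animals or preparations. The p-values therefore measure the spread between these libraries, part of which may be technical. Replicate numbers did not pair Day0 with siSbp2l (r = -0.26 between their deviations, over 1 pair of groups). Over the other pairs of groups r ran from -0.39 (non-treated and NC siRNA #1) to 0.48 (Day0 and non-treated). The fit was tested on simulated data.

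The members and all gene lists were chosen with earlier results of these data known. Genes named are those the study discusses, up to 5 members of each list with the largest change since Day0 and 3 more with the largest difference from the controls, the 12 largest rises and falls of genes of at least 10 FPKM, and 8 genes each that reached the control level, stayed at the Day0 level or were called with the knockdown and not in the controls, each by its 95% interval. Cd9, Cdkn1b, Gjb1, Mal, Cryab, Aspa, Klk6, Hapln2, S1pr5, Kif19a, Casr, Tmem163, Cx3cr1 and Gjb6 fall outside this rule and were chosen after their values were seen. A few genes that the lists or the rule hold are not reported here by name. Of 571 list entries 570 were found in the table. Promoter windows came from RefSeq (GRCm38.p6). Alternatives covered the pseudocount, filter, scaling, libraries fitted, replicate block, fold threshold, GC content and length, single controls and each replicate left out. Figures were drawn with matplotlib 3.10.9.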

Additional observations from a re-analysis of the deposited data

Results flagged for a closer look

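Only the 256 genes picked by the naming rule were searched here. For 17 of these genes the change since Day0 differed between siSbp2l and the controls in sign, with a call for the difference itself and for at least 1 of the changes (limma, adjusted p under the threshold in each). Parts of the naming rule select on the same values, so the count and its members are a description. The difference, siSbp2l minus the mean of the 4 control groups on the log2 scale, was largest for Secisbp2l itself (-5.21). Genes with a positive fitted change since Day0 in the controls and a negative one in siSbp2l were Tspan2 (-3.93), Lamp1 (-2.97), Arpc1b (-2.70), Cpox (-2.46), Cox4i1 (-2.45), Csrp1 (-2.12), Tmem98 (-2.03), Trappc3 (-1.92), Insig1 (-1.38) and Tpi1 (-1.21). Genes with the opposite signs were Dcx (2.05), Hes1 (1.94), Id2 (1.77), Vcan (1.43), Cacng4 (1.32) and Ldhb (1.16). For Cox4i1, Trappc3, Tpi1, Vcan, Hes1 and Dcx the value on the control side was under 2-fold and was not called, and for Tspan2, Lamp1, Arpc1b, Cpox, Csrp1, Tmem98, Insig1, Id2, Cacng4 and Ldhb the same held on the siSbp2l side. The smaller of the changes had an adjusted p above the threshold (limma) for Cox4i1 (log2 change 0.17), Trappc3 (0.08), Tpi1 (0.05), Vcan (-0.27) and Dcx (-0.21) in the controls and for Csrp1 (-0.19), Tmem98 (-0.09), Cacng4 (0.04) and Ldhb (0.13) in siSbp2l, so opposite directions are not shown for these, and with median-ratio scaling the value of Cacng4 was -0.06. Csrp1, an actin-bundling partner, had 38.4 and 32.7 FPKM at Day0, 31.4 and 30.7 in siSbp2l and 106, 147 and 178 in the controls. Ldhb, a lactate dehydrogenase subunit, had 80.2 and 81.2, 91.7 and 85.9 and 30.5, 38.4 and 49.2 FPKM in that order. For Tmem98 the difference from the single control groups ran from -2.97 to -0.08, the NC siRNA #2 libraries lying near siSbp2l.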

How the results depend on the processing

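The count of genes called depended most on the fold threshold and the pseudocount. Without the fold threshold it was 7586 in siSbp2l against Day0 (4159 higher and 3427 lower), 8779 in the controls against Day0 and 6505 in siSbp2l against the controls. With a pseudocount of 5 the counts were 1527 (712 higher and 815 lower), 1940 and 392, and with a pseudocount of 0.1 the last was 1411. Removing the trends with GC content and length left 2590 in siSbp2l against Day0. Leaving out each replicate of Day0 and siSbp2l gave 2679 to 2794 in siSbp2l against Day0 (1376 to 1543 higher and 1251 to 1303 lower), 3130 to 3194 in the controls against Day0 and 828 to 887 in siSbp2l against the controls. With a single control group in place of all 4, the last was 1233 with non-treated, 933 with mock, 1150 with NC siRNA #1 and 893 with NC siRNA #2 cells.

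With the replicate number as a block, although the numbers give no pairing of Day0 with siSbp2l, 2706 genes were called in siSbp2l against Day0. The block changed no call of a named gene there. With the Day0 numbers crossed in the block, an alternative added after the data were seen, the count was 2704. Of the 247 genes named and tested in siSbp2l against Day0, 168 were called, and none of these turned direction under any alternative run, while some that were not called, Cacng4 and Tmem98 among them, changed sign near 0. Of the 168 called, 25 lost the call under at least 1, 23 of them with a pseudocount of 5, among them Mog, Mobp, Neu4, St18, Hes1, Rxrg, Lgr5, Grm7 and Gabra3. The median of 6 of 27 gene lists changed sign under some alternative, namely Wnt feedback, fatty acid synthesis, imprinted growth genes, neuron markers, selenoproteins and transmitter receptors. Genes under the filter in siSbp2l and Day0 were not tested at these depths. The label of Day0 names no transfection, so time and transfection cannot be told apart in siSbp2l against Day0.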
